A study of Mus musculus with 10 samples.

Results

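The Notch pathway was followed at the RNA level in regenerating mouse muscle through 10 genes chosen by name, of 25700 genes listed in each count table. They were the receptors Notch1, Notch2 and Notch3, the ligands Dll1, Dll4 and Jag1, the nuclear factor Rbpj, and the target genes Hes1, Hey1 and Heyl. Each was found once, by its Ensembl identifier, and all 10 passed the filter on low counts that left 14410 genes for testing.

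The study asked which genes differ in regenerating muscle when the microRNA gene miR-501 is deleted. RNA was taken from whole tibialis anterior muscle and sequenced from stranded mRNA libraries, 1 library per mouse. The control group held 5 Pax7Cre mice, whose genotype is labelled wild type, and the deleted group held 5 miR-501KO mice, labelled miR-501 -/- and described as Pax7Cre mice with a floxed miR-501 allele on their X chromosome. All 10 mice were C57BL/6 males aged 12 weeks, all carried the Pax7Cre allele, and all had cardiotoxin (CTX), a snake venom toxin that kills muscle fibers, injected into the muscle 6 days before sampling. The Cre allele is non-inducible and driven by the Pax7 promoter, so deletion is directed to the myogenic lineage from development onwards, while vessel, immune and connective tissue cells in the same muscle are not known to use that promoter. The miR-501 gene itself was not analysed here, so the counts do not check the deletion.

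Notch receptors sit on the cell surface and are cut after binding a ligand on a neighbouring cell, first by an ADAM protease and then by γ-secretase. The freed intracellular part enters the nucleus, joins RBPJ and Mastermind proteins on DNA, and turns on genes of the Hes and Hey families. In muscle the pathway is known for keeping satellite cells quiescent and for restraining differentiation, and in vessels for tip cell selection and the maturation of mural cells.

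Totals ran from 18609222 counts in Pax7Cre mouse 3 to 24753258 in miR-501KO mouse 1. Normalised counts are given as CPM, each mouse's count scaled by its total and TMM factor, and differences are log2 fold changes of miR-501KO over Pax7Cre from edgeR's quasi-likelihood fit over all 14410 genes. Some control libraries stood apart. On the first principal component, which held 33% of the variance, Pax7Cre mouse 2 lay at 43.9 and Pax7Cre mouse 4 at -27.5, and the mouse next in distance from 0, miR-501KO mouse 4, lay at 16.9. Mitochondrial genes took 14% of the counts in Pax7Cre mouse 2 and 6.59% in Pax7Cre mouse 4, the highest and the lowest shares of the 10 mice. The summed CPM of 10 mature fiber markers was 74714 in mouse 2 and 30358 in mouse 4, again the highest and the lowest. On the second component (17.2% of the variance) Pax7Cre mouse 3 lay at -33.6, with the next mouse in distance from 0, Pax7Cre mouse 4, at 15.2, and mouse 3 also had the fewest genes with a count, 16742.

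No gene differed between genotypes at an adjusted p under 0.05 in edgeR's quasi-likelihood test. Without adjustment 151 genes, 1.05% of those tested, had a p under 0.05, of which 55 were higher in miR-501KO (0.382%) and 96 lower (0.666%). These counts moved with single mice: without Pax7Cre mouse 2 there were 453 (267 higher, 186 lower), without mouse 4 there were 470 (228 higher, 242 lower) and without both, a choice made after seeing the data, 531 (279 higher, 252 lower). Without Pax7Cre mouse 3 there were 140 (68 higher, 72 lower), and without miR-501KO mouse 1 there were 98 (39 higher, 59 lower). DESeq2's Wald test also gave 0 genes after adjustment, with 150 unadjusted, and edgeR's likelihood ratio test gave 19 and 254. Among the 10 Notch genes, 1 had an unadjusted p under 0.05, the ligand Jag1, which was higher in miR-501KO. 5 of the 10 had a log2 fold change above 0 and 5 below, and their median was 0.00, against a median of 0.00 and 47.9% above 0 over all genes tested. The adjusted p from edgeR was 1 for each of the 10. In CPM the genotypes overlapped for each of the 10, and over all genes tested 20 (0.139%) had groups of 5 mice that did not overlap.

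**Figure D1:**
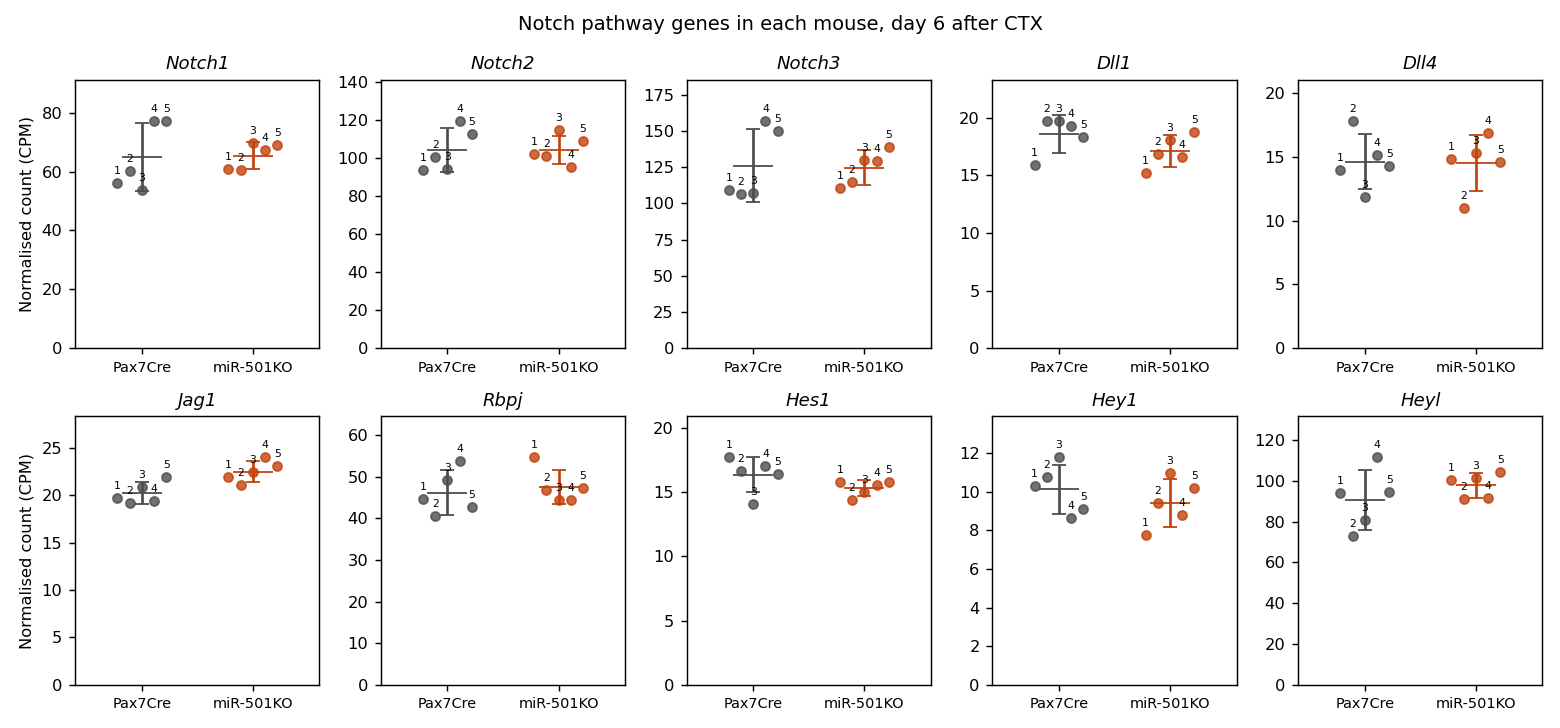
Normalised count (CPM, linear axis from 0) of the 10 Notch genes in each mouse, with dots numbered by mouse, grey for Pax7Cre and orange for miR-501KO, and lines for the mean ± SD of 5 mice. The groups overlap in every panel, and Pax7Cre mice 4 and 5 carry the highest Notch1 and Notch3 values.

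Notch3 is the receptor best known from pericytes and vascular smooth muscle, and is also made by satellite cells. It stood at 109.4, 106.5, 107.0, 157.1 and 149.7 CPM in Pax7Cre mice 1 to 5 and at 110.7, 114.5, 130.1, 129.2 and 139.1 CPM in miR-501KO mice 1 to 5. Pax7Cre mice 4 and 5 were above all miR-501KO mice and the other Pax7Cre mice below all of them, so the control group enclosed the deleted group on both sides. The means were 125.9 ± 25.2 CPM (SD, n = 5) and 124.7 ± 11.8 CPM (SD, n = 5). The log2 fold change was -0.01 (SE 0.13, 95% interval -0.29 to 0.26), with p = 0.911 in edgeR's test and p = 0.960 in the exact permutation test. The sign of this difference changed when single mice were left out, in 4 of 10 fits, so no direction is given for it.

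Notch1, a receptor used by both satellite cells and endothelium, showed the same arrangement of mice. Its values were 56.0, 60.3, 53.8, 77.3 and 77.2 CPM in Pax7Cre mice 1 to 5, and 60.8, 60.5, 69.7, 67.4 and 69.0 CPM in miR-501KO mice 1 to 5. Pax7Cre mice 4 and 5 were again the highest of all 10, and the remaining controls were the lowest. The group means, 64.9 ± 11.5 CPM and 65.5 ± 4.52 CPM (SD, n = 5 each), differed by far less than the spread between mice, with a log2 fold change of 0.01 (95% interval -0.23 to 0.25; exact permutation p = 0.968).

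Notch2, which acts beside Notch1 in satellite cells, varied least of the receptors. In Pax7Cre mice 1 to 5 it was 93.7, 100.2, 94.1, 119.5 and 112.7 CPM, and in miR-501KO mice 1 to 5 it was 101.7, 100.9, 114.4, 95.3 and 108.9 CPM. The highest value was in Pax7Cre mouse 4 and the lowest in Pax7Cre mouse 1, with the whole of the other group between them. Between genotypes the log2 fold change was 0.00 (SE 0.09, 95% interval -0.19 to 0.19), with an exact permutation p of 0.992. For Notch1 and Notch2 alike, leaving out single mice changed the sign in 5 of 10 fits.

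The intervals of the receptors bound what these data could have missed. For Notch2 a log2 difference beyond 0.19 in either direction lay outside the 95% interval, and for Notch3 one beyond -0.29 or 0.26. Counting error was a small part of this. The lowest count of these 3 receptors was 1019, for Notch1, and the variation between mice in Notch1 was 12.6% (coefficient of variation over 10 mice) where counting alone would give 2.65%. In bulk muscle, fewer cells that carry a receptor and less receptor RNA per cell cannot be told apart.

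Among the ligands, Jag1 had the lowest p of the 10 Notch genes. It is made by endothelium, smooth muscle and fibers, and is known as the partner of Notch3 in vessel walls. Its values were 19.8, 19.2, 20.9, 19.4 and 21.9 CPM in Pax7Cre mice 1 to 5 and 21.9, 21.1, 22.4, 24.0 and 23.1 CPM in miR-501KO mice 1 to 5. The miR-501KO mice 3, 4 and 5 were above all controls, mouse 1 was level with the highest control, and mouse 2 was below it. The means were 20.2 ± 1.14 CPM and 22.5 ± 1.11 CPM (SD, n = 5 each).

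The log2 fold change of Jag1 was 0.15 (SE 0.07, 95% interval 0.00 to 0.30), with an unadjusted p of 0.0462 and an adjusted p of 1 in edgeR's quasi-likelihood test, and p = 0.0159 in the exact two-sided permutation test on CPM. By edgeR's p it ranked 133 of 14410 genes. This p was 0.0549 by the Wald test of DESeq2, 0.0520 by the newer quasi-likelihood form in edgeR, 0.236 by the likelihood ratio test and 0.0670 without the filter on low counts. Leaving out a mouse kept it under 0.05 for Pax7Cre mouse 3, Pax7Cre mouse 5 and miR-501KO mouse 2 (3 of 10), and brought it above 0.05, to at most 0.120, for Pax7Cre mice 1, 2 and 4 and miR-501KO mice 1, 3, 4 and 5. With Pax7Cre mice 2 and 4 both left out, a choice made after seeing the data, the log2 fold change of Jag1 was 0.11 and edgeR's adjusted p was 0.983. In each of these fits the log2 fold change stayed above 0, from 0.11 to 0.18.

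Dll1, the ligand that fibers and differentiating myoblasts present to satellite cells, was 15.9, 19.7, 19.8, 19.3 and 18.4 CPM in Pax7Cre mice 1 to 5. In miR-501KO mice 1 to 5 it was 15.2, 16.8, 18.1, 16.6 and 18.8 CPM. The 3 highest mice were controls 2, 3 and 4, but control 1 was lower than all deleted mice except mouse 1. Its log2 fold change was -0.12 (SE 0.09, 95% interval -0.31 to 0.07), with an exact permutation p of 0.135, and it stayed below 0, from -0.17 to -0.08, whichever of the 10 mice was left out.

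Dll4, the ligand of endothelial tip cells and arteries, was 14.0, 17.8, 11.9, 15.1 and 14.3 CPM in Pax7Cre mice 1 to 5 and 14.8, 10.9, 15.3, 16.9 and 14.6 CPM in miR-501KO mice 1 to 5. Each group had a single low mouse, Pax7Cre mouse 3 and miR-501KO mouse 2, and the rest were mixed. Its log2 fold change was -0.01 (SE 0.13, 95% interval -0.28 to 0.27; exact permutation p = 0.929). Dll4 rested on 225 to 377 counts per mouse, which would give a coefficient of variation of 5.61% from counting alone, against 14.1% seen over the 10 mice.

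Rbpj encodes the DNA-binding protein that all 4 mouse Notch receptors use. It was 44.5, 40.6, 49.2, 53.9 and 42.8 CPM in Pax7Cre mice 1 to 5, and 54.6, 46.8, 44.5, 44.4 and 47.3 CPM in miR-501KO mice 1 to 5. The highest mouse was miR-501KO mouse 1, closely followed by Pax7Cre mouse 4, and the lowest was Pax7Cre mouse 2. The group means were 46.2 ± 5.35 CPM and 47.5 ± 4.18 CPM (SD, n = 5 each). Between genotypes the log2 fold change was 0.04 (SE 0.09, 95% interval -0.16 to 0.24; exact permutation p = 0.683), and leaving out a mouse changed its sign in 2 of 10 fits.

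None of the targets Heyl, Hes1 and Hey1 had an unadjusted p under 0.05 in edgeR's test, and their log2 fold changes did not share a sign. Heyl, a transcriptional repressor that responds to Notch3 in smooth muscle and to Notch in satellite cells, was 93.9, 72.9, 80.9, 111.4 and 94.3 CPM in Pax7Cre mice 1 to 5 and 100.2, 90.9, 101.5, 91.7 and 104.3 CPM in miR-501KO mice 1 to 5. Pax7Cre mouse 4 was the highest and Pax7Cre mice 2 and 3 the lowest, and the deleted mice lay between. For Heyl the log2 fold change was 0.11 (SE 0.10, 95% interval -0.12 to 0.33), with p = 0.327 in edgeR's test and p = 0.365 in the exact permutation test. It was 0.04 to 0.19 when single mice were left out.

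Hes1, the most widely used Notch target, was 17.7, 16.6, 14.1, 17.0 and 16.4 CPM in Pax7Cre mice 1 to 5 and 15.8, 14.3, 15.03, 15.6 and 15.8 CPM in miR-501KO mice 1 to 5. All deleted mice lay below controls 1, 2, 4 and 5 and above control 3. The log2 fold change was -0.10 (SE 0.08, 95% interval -0.27 to 0.08), with an exact permutation p of 0.167. Pax7Cre mouse 3 alone made the groups overlap. Without it, a choice made after seeing the data, the log2 fold change was -0.14. The unadjusted p was then 0.0638 and the adjusted p 1 in edgeR's fit. Over all fits that left out 1 mouse the log2 fold change ran from -0.14 to -0.07. The unadjusted p of these edgeR fits ran from 0.0638 to 0.444.

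Hey1, which marks arterial endothelium and quiescent satellite cells, was 10.3, 10.8, 11.8, 8.66 and 9.11 CPM in Pax7Cre mice 1 to 5 and 7.76, 9.39, 10.99, 8.79 and 10.2 CPM in miR-501KO mice 1 to 5. The lowest value was in miR-501KO mouse 1 and the highest in Pax7Cre mouse 3, with the other mice mixed. Its log2 fold change was -0.10 (SE 0.12, 95% interval -0.36 to 0.16), with an exact permutation p of 0.405. When single mice were left out this value ran from -0.16 to -0.04. Hey1 had the fewest counts of the 10 genes, 166 to 264 per mouse, where counting alone would give a coefficient of variation of 6.86% against 12.6% seen.

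Levels of different genes were compared as CPM per kilobase of annotated exon, over all 10 mice. On this scale Heyl had the highest level, 18.4 ± 2.20 (SD, n = 10), followed by Notch3 at 15.5 ± 2.30. Heyl was above Notch3 in 9 of 10 mice. Next came Notch2 at 9.66 ± 0.851, Hes1 at 7.77 ± 0.564 and Notch1 at 4.58 ± 0.579 CPM per kilobase. The 5 genes Notch1, Dll1 (4.23 ± 0.384), Dll4 (3.78 ± 0.532), Rbpj (3.67 ± 0.359) and Jag1 (3.67 ± 0.275) followed each other by gaps smaller than the SD between mice, so neighbours among them did not differ beyond their spread. Hey1 had the lowest level per kilobase of exon, 2.99 ± 0.379, a place it did not keep with another length.

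The order depended on the length used. With the longest annotated transcript in place of all exons, Heyl stayed first (20.8 CPM per kilobase) and Notch3 stayed next (15.6), but Hes1 passed Notch2 (10.8 against 9.92) and Rbpj rose to 8.54, since its exons span 12750 bases where its longest transcript has 5485. Jag1 (3.81) and Dll4 (3.89) then lay below Hey1 (4.03) per kilobase of transcript. By plain CPM, 91.9% of tested genes had a lower mean than Notch3 and 30.3% had a lower mean than Hey1, the ends of the range of the 10 genes.

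As shares of the per-kilobase sum of the 4 Notch receptors, Notch3 made up 45.0% ± 1.84 (SD, n = 10), Notch2 28.3% ± 1.51, Notch4 13.4% ± 1.33 and Notch1 13.3% ± 0.405. The order of the first 2 held in each mouse, since the lowest share of Notch3 was 41.1% and the highest of Notch2 was 30.2%. The share of Notch1 was the steadiest, between 12.8% and 14.0%. These shares depend on the length used, and by the longest transcript Notch1 passed Notch4 (6.87 against 5.62 CPM per kilobase). The ligands were more even per kilobase of exon, with Jag2 at 29.6% ± 2.38 of the sum of 4 ligands, Dll1 at 25.5% ± 2.40, Dll4 at 22.7% ± 2.19 and Jag1 at 22.2% ± 1.98. They were less even by the longest transcript, with Jag2 at 6.73 CPM per kilobase, Dll1 at 4.99, Dll4 at 3.89 and Jag1 at 3.81. Of the per-kilobase sum of Heyl, Hes1 and Hey1, Heyl held 62.9% ± 3.34, Hes1 26.7% ± 2.22 and Hey1 10.3% ± 1.82.

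**Figure D2:**
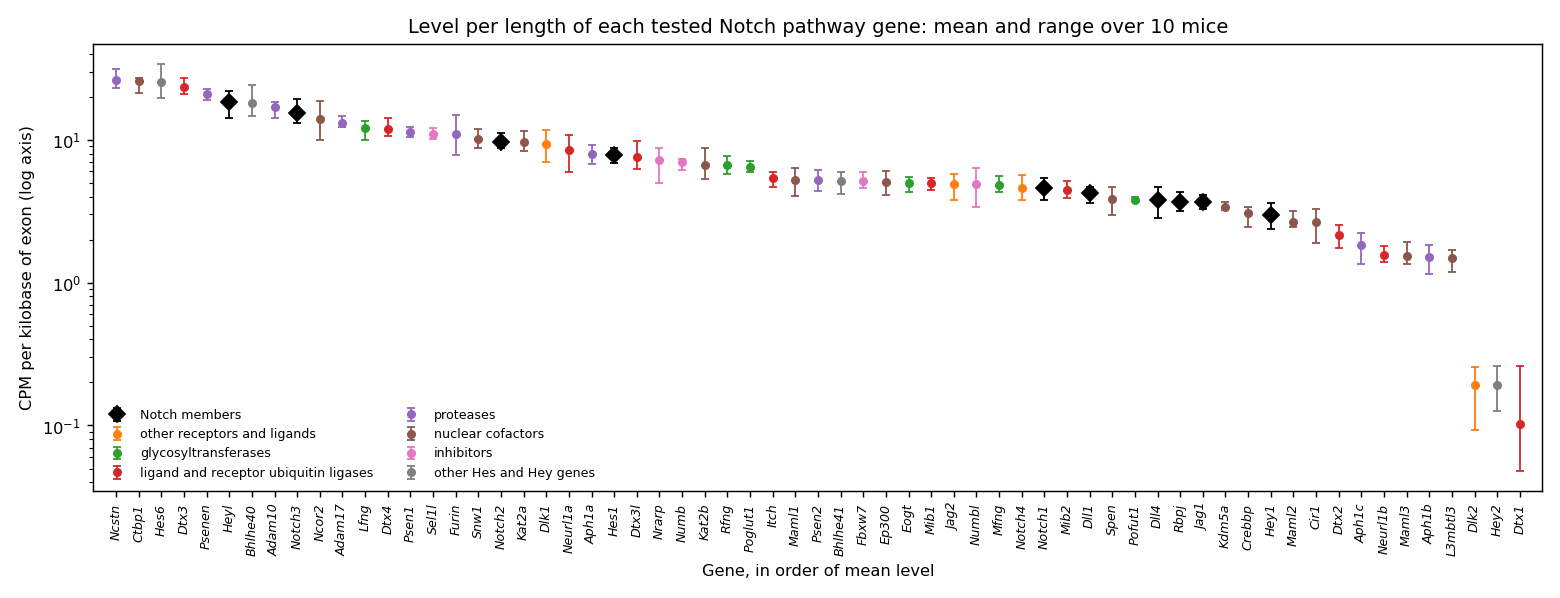
Level of each tested Notch pathway gene in CPM per kilobase of exon (log axis), in falling order, as the mean over 10 mice (dot) with the lowest and the highest mouse (bar), black diamonds marking the 10 genes followed here. Heyl and Notch3 stand near the top, while Notch1, Dll1, Dll4, Rbpj, Jag1 and Hey1 lie close together in the lower part.

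Other genes of the pathway were taken from lists by role, 61 genes in all, of which 53 had enough counts to be tested. None of the 53 had an unadjusted p under 0.05 in edgeR's quasi-likelihood test, where 1.05% of all genes did, and none did in DESeq2's Wald test or edgeR's likelihood ratio test. In the exact permutation test on CPM 1 did, the ubiquitin ligase gene Neurl1b, named after its value was seen (p = 0.0476, log2 fold change -0.14, with 3 of 5 miR-501KO mice below all controls). Over all genes tested 217 (1.51%) had an exact permutation p under 0.05. Of the 53, 29 were above 0 and 24 below, with a median log2 fold change of 0.02. Of 6 further receptors and ligands, 4 were tested, with 3 higher and 1 lower in miR-501KO and a median of 0.07, which ran from 0.00 to 0.16 when single mice were left out. Notch4, the endothelial receptor, had the lowest log2 fold change of these, -0.16 (SE 0.12, 95% interval -0.42 to 0.09), from 39.2 ± 6.12 CPM to 35.0 ± 4.65 CPM (SD, n = 5 each). For Notch4 it ran from -0.235 to -0.10 when single mice were left out. Without both Pax7Cre mice 2 and 4, a choice made after seeing the data, it was -0.03. Dlk2 had the highest, 0.41, on only 4 to 13 counts per mouse and with a 95% interval from -0.23 to 1.06. Dlk1, an atypical ligand made in regenerating muscle, was the most abundant of them at 9.36 CPM per kilobase, with a log2 fold change of 0.09. That value was 0.01 without Pax7Cre mouse 3 and 0.20 without Pax7Cre mouse 5.

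The fringe and other sugar transferases modify the receptors' extracellular repeats and so set which ligand they answer to. Of 6, all tested, 1 was higher and 5 lower, with a median log2 fold change of -0.02. Lfng was both the most abundant, at 12.1 CPM per kilobase, and the highest in log2 fold change, 0.07, while Mfng was the lowest at -0.05. Without Pax7Cre mouse 3 these log2 fold changes were 0.0194 for Lfng and -0.0025 for Mfng. The 10 ubiquitin ligases of the pathway, which drive endocytosis of ligands and receptors, had 6 higher and 4 lower and a median of 0.02. Dtx3 was the most abundant of them, 23.2 CPM per kilobase, with a log2 fold change of 0.06. Dtx2 was the highest in log2 fold change at 0.09 and Dtx1 the lowest at -0.16, the latter on 6 to 26 counts per mouse and with a 95% interval from -1.12 to 0.79. Neither the sign of Dtx1 nor its place as the lowest held without Pax7Cre mouse 2, which had the 26 counts, since the log2 fold change was then 0.42, and without miR-501KO mouse 5 it was 0.01.

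The proteases that cut the receptors had 7 of 10 higher and 3 lower, with a median log2 fold change of 0.03. Ncstn, the substrate-binding subunit of γ-secretase, was the most abundant at 26.3 CPM per kilobase, above every one of the 10 Notch genes, with a log2 fold change of 0.00 (-0.04 to 0.07 when single mice were left out). By the longest transcript Psenen was above Ncstn, at 37.4 against 34.7 CPM per kilobase. Aph1b and Aph1c, nearly identical copies whose reads may be split between them, were the lowest (-0.12) and the highest (0.11) and are uncertain for that reason. Of 15 nuclear cofactors, 14 were tested, with 8 higher and 6 lower and a median of 0.02. The corepressor Ctbp1 was the most abundant, 25.6 CPM per kilobase, with a log2 fold change of 0.06 that fell to 0.01 without Pax7Cre mouse 3, the acetyltransferase Crebbp was the highest at 0.11, and the RBPJ-binding corepressor Cir1 the lowest at -0.12.

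Of 5 inhibitors, 2 were higher and 3 lower, with a median log2 fold change of -0.04. Nrarp, itself a Notch target that feeds back on the receptor complex, had the lowest value of them, -0.18 (SE 0.14, 95% interval -0.49 to 0.13). Leaving out single mice gave Nrarp a log2 fold change from -0.28 to -0.09. In Pax7Cre mice 1 to 5 it was 21.2, 22.5, 14.8, 19.0 and 21.7 CPM, and in miR-501KO mice 1 to 5 it was 12.8, 17.0, 21.9, 18.4 and 17.4 CPM. Control 3 was lower than all deleted mice except mouse 1, and the groups overlapped. Fbxw7 was the highest inhibitor at 0.07, and Sel1l the most abundant at 10.97 CPM per kilobase, with a log2 fold change of -0.05.

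The list called other Hes and Hey genes held 9 genes, among them Bhlhe40 and Bhlhe41, which belong to neither family. Only 4 of the 9 had enough counts, namely Hes6, Hey2, Bhlhe40 and Bhlhe41. Of these 2 were higher and 2 lower, with a median log2 fold change of -0.02. Hes6, known as an antagonist of Hes1, was the most abundant at 25.2 CPM per kilobase, above Heyl, with a log2 fold change of 0.04, which turned to -0.04 without Pax7Cre mouse 2 and to -0.01 without miR-501KO mouse 2. Hey2, taken as the lowest at -0.07, had the same log2 fold change as Bhlhe41, -0.0726. Hey2 was 0.01 without Pax7Cre mouse 2 and 0.04 without miR-501KO mouse 3. Bhlhe40 was the highest at 0.07. Pax7Cre mouse 2, at 113.1 CPM, had the highest Bhlhe40 of the 10 mice. Without that mouse the log2 fold change of Bhlhe40 was 0.21, and edgeR gave an unadjusted p of 0.0458 and an adjusted p of 0.999. Without miR-501KO mouse 4 the log2 fold change of Bhlhe40 was 0.01. Of the 20 genes named by rule from these lists, 16 had a single sign in the fits without 1 mouse, and Dtx1, Ncstn, Hes6 and Hey2 did not. A single sign did not mean a steady value. In these fits Dtx3 ran from 0.01 to 0.11 and Aph1c from 0.03 to 0.17. The genes Dll3, Dner, Rbpjl, Hes2, Hes3, Hes5, Hes7 and Helt had 0 to 14 counts per mouse and were not tested.

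**Figure D3:**
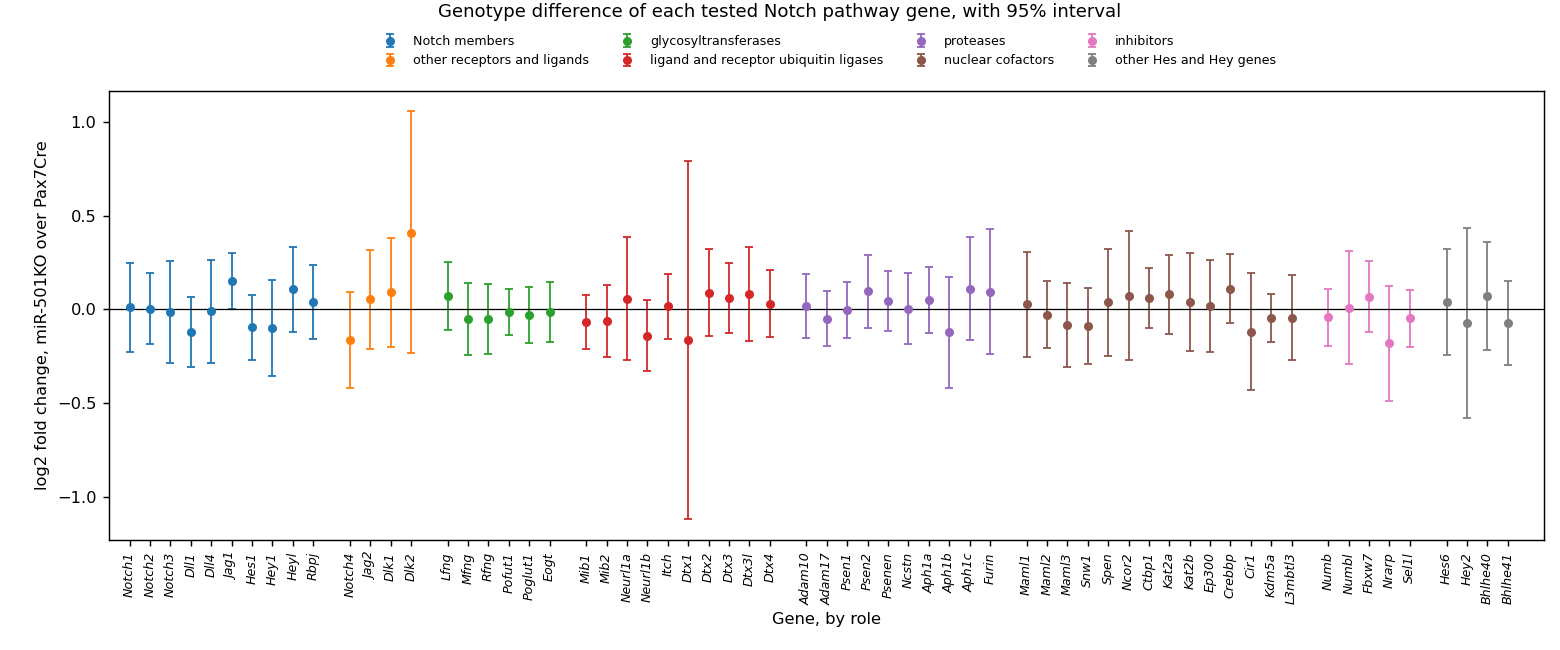
Log2 fold change of miR-501KO over Pax7Cre (dot) with its 95% interval (bar) for the 63 tested Notch pathway genes, coloured and grouped by role. Most dots lie close to 0 and only the interval of Jag1 lies above 0, while the widest intervals belong to Dlk2 and Dtx1, which had few counts.

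Annotated neighbours make some of these counts uncertain, since the sources used here do not state whether counting used strand. Exons of Notch1 (Gm13568, 0610009E02Rik), Notch3 (Gm17276), Dll1 (A930024N18Rik) and Dll4 (Gm14207) overlap noncoding genes on the opposite strand, and those of Notch2 overlap Gm42820 on the same strand. Exons of Dlk2, Ncstn, Psenen, Aph1c, Cir1, Nrarp, Bhlhe40 and Bhlhe41 also overlap genes on the opposite strand. Protein-coding ones are those at Dlk2 (Abcc10), Ncstn (Copa), Psenen (U2af1l4 and Gm49396) and Cir1 (Scrn3 and Sp9). Further genes of the pathway lists have such neighbours too, among them Adam17 (Iah1) and Aph1a (Car14). Jag1, Hes1, Hey1, Heyl and Rbpj overlap no other annotated exon. In GRCm38 the gene of Jag1 lies at chr2:137081456-137116644 (minus strand), that of Notch3 at chr17:32120820-32166852 (minus strand), that of Heyl at chr4:123233556-123249875 (plus strand) and that of Rbpj at chr5:53466152-53657362 (plus strand).

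Cell types that carry Notch genes were checked through marker lists, since the muscle holds many of them. All 10 endothelial, 10 mural, 10 satellite cell and myoblast, 10 mature fiber, 5 regenerating fiber, 8 fibro-adipogenic progenitor, 9 macrophage and 7 T cell markers had counts in each mouse, and none of these markers was at 0. The most abundant per kilobase of exon were Cdh5, Acta2, Des, Acta1, Actc1, Col1a1, Lyz2 and Cd4, in that order of lists. By the longest transcript Pecam1 passed Cdh5 (62.9 against 58.0 CPM per kilobase) and Tnnt3 passed Acta1 (8592 against 7442). The most abundant satellite cell and myoblast marker, Des, is also made by fibers. For the 8 summed levels the exact permutation p between genotypes ran from 0.254 to 0.933, with an adjusted p of 0.933 for each (over 9 lists). A sum is led by its most abundant markers, so these tests weigh such markers most. In the mean of the Pax7Cre mice Col1a1 gave 7239 of 9359 CPM of the fibro-adipogenic sum, and Cd4 gave 34.9 of 55.9 CPM of the T cell sum. Gene by gene, the tested markers higher in miR-501KO were 1 of 10 endothelial, 4 of 10 mural, 7 of 8 satellite cell and myoblast, 9 of 10 mature fiber, 3 of 5 regenerating fiber, 2 of 8 fibro-adipogenic, 6 of 9 macrophage and 5 of 7 T cell markers, none at an unadjusted p under 0.05 in edgeR's quasi-likelihood test. With single mice of either genotype left out these counts ran, in the same order, from 0 to 5, 2 to 6, 3 to 7, 4 to 10, 1 to 4, 1 to 4, 0 to 7 and 3 to 6. Without Pax7Cre mouse 2 they were 5 for endothelial, 3 for satellite cell and myoblast and 0 for macrophage markers, without mouse 2 or mouse 3 of the controls 4 for fibro-adipogenic markers, and without Pax7Cre mouse 4 they were 4 for mature fiber markers, so no direction is read from them.

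Endothelial markers summed to 902.2, 1026.0, 867.4, 800.5 and 960.1 CPM in Pax7Cre mice 1 to 5 and to 837.3, 818.8, 990.1, 916.8 and 851.1 CPM in miR-501KO mice 1 to 5. Mural markers summed to 1624, 1467, 1490, 1734 and 1671 CPM in the controls and 1822, 1596, 1697, 1603 and 1682 CPM in the deleted mice. Acta2 alone gave 387 to 831 CPM of the mural sums. Satellite cell and myoblast markers summed to 2900, 3900, 3583, 3133 and 3846 CPM in the controls and 3365, 4039, 3524, 3676 and 3791 CPM in the deleted mice. Des alone gave 2226 to 3373 CPM of these, so the sum followed Des. Myog and Cdh15 were lowest in Pax7Cre mouse 2, where the sum was high, and highest in Pax7Cre mouse 4, where it was low. The sums of mature fiber markers varied more and were 38693, 74714, 37640, 30358 and 49644 CPM in the controls and 43886, 45107, 47695, 58554 and 51985 CPM in the deleted mice. The regenerating fiber markers ran from 4539 to 7052 CPM over the 10 mice and the macrophage markers from 4990 to 7071.

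Each Notch gene was set against 4 marker scores over the 10 mice, 40 relations in all. A score is the mean over a list's tested markers of centred log2 CPM, so a marker's level does not set its weight and Des does not lead. The values were not scaled by their spread, so markers that varied more between mice weigh more. For Pearson's r, 6 of the 40 relations had an unadjusted permutation p under 0.05 and 1 an adjusted p under 0.05. Heyl rose with the satellite cell and myoblast score, with Pearson's r = 0.89 (permutation p = 0.00075, adjusted p = 0.030) and Spearman's rho = 0.87 (permutation p = 0.00217, adjusted p = 0.0868). The lowest score, -0.21, was in Pax7Cre mouse 2 with the lowest Heyl, and the highest, 0.17, in Pax7Cre mouse 4 with the highest Heyl. These are the mice that stood apart and the ones farthest from the median score, and without them r was 0.65. With both values centred on the mean of their genotype r was 0.88, with an adjusted permutation p of 0.0553. Over all 14410 tested genes, 423 (2.94%) had an r with this score at least as far from 0, Heyl included. Relations of Heyl to the scores of the other marker lists were not computed. Pax7Cre mice 2 and 4 were also the lowest and the highest in the regenerating fiber score (-0.38 and 0.20) and in the macrophage score (-0.25 and 0.24). Whether the relation is particular to the satellite cell and myoblast list was therefore not tested.

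No other relation had an adjusted p under 0.05 before centring. Rbpj against the endothelial score had r = -0.83 (permutation p = 0.0032, adjusted p = 0.064) and rho = -0.82 (permutation p = 0.006, adjusted p = 0.12), and r was -0.63 without Pax7Cre mice 2 and 4. Of all tested genes, 525 (3.64%) had an r with this score at least as far from 0. The relation of Rbpj to the mature fiber score had r = -0.72 (adjusted permutation p = 0.222) and rho = -0.75 (adjusted permutation p = 0.164), and r was -0.35 without Pax7Cre mice 2 and 4. With genotype-centred values this relation had r = -0.80 (adjusted permutation p = 0.0553) and rho = -0.90 (adjusted permutation p = 0.0312), and r was -0.62 without the 2 farthest mice. Notch3 against the satellite cell and myoblast score had r = 0.69 (adjusted permutation p = 0.262), and 0.43 without those mice. Heyl against the endothelial score was -0.66 with them and 0.04 without them, so that relation rested on them. Dll4, the ligand of endothelium, had r = 0.50 with the endothelial score (permutation p = 0.136, adjusted p = 0.418). Jag1 had r = 0.26 with the mature fiber score over 10 mice (adjusted permutation p = 0.858) and r = 0.89 without Pax7Cre mice 2 and 4, a value singled out after it was seen. The part of these cell types in the values of the Notch genes was not tested.

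Relations among the 10 genes themselves, chosen for description after the values had been seen, numbered 45. For Pearson's r, 5 had an unadjusted permutation p under 0.05 and 2 an adjusted p under 0.05. Notch1 and Notch3 moved together over the 10 mice, with r = 0.96 (permutation p = 3e-05, adjusted p = 0.00135) and rho = 0.94 (permutation p = 0.00017, adjusted p = 0.00765). Without Pax7Cre mice 4 and 5, the farthest from the median of Notch1, r was 0.91, and without Pax7Cre mice 2 and 4 it was 0.96. With genotype-centred values r was 0.96 (adjusted permutation p = 0.0054), and rho was 0.85 with an adjusted permutation p of 0.0585. Among all 14410 tested genes, 14 (0.0972%), Notch3 included, had an r with Notch1 this far from 0.

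Notch1 and Notch2 had r = 0.86 (permutation p = 0.00196, adjusted p = 0.0441) and rho = 0.90 (permutation p = 0.00069, adjusted p = 0.0155), and r = 0.74 without Pax7Cre mice 4 and 5. Centring by genotype gave r = 0.86 (adjusted permutation p = 0.0414) and rho = 0.87 (adjusted permutation p = 0.0585). Here 449 genes (3.12%) had an r with Notch1 at least as far from 0. Notch2 and Notch3 had r = 0.82 (adjusted permutation p = 0.0868). No pair of a receptor with a ligand, and no pair of ligands, had an unadjusted permutation p under 0.05. The remaining pairs with an unadjusted p of r under 0.05 were Heyl with Notch3 (r = 0.69, adjusted permutation p = 0.258) and Heyl with Notch2 (r = 0.64, adjusted permutation p = 0.398). By rank, Heyl with Notch1 was also under it (rho = 0.78, permutation p = 0.0104, adjusted p = 0.0932).

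**Figure D4:**
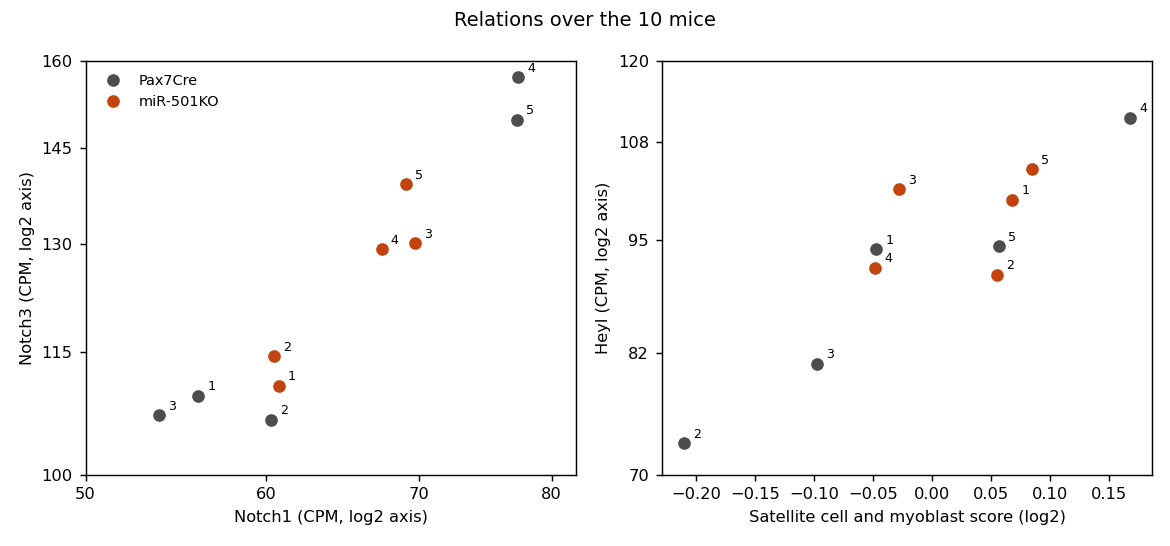
Left, Notch3 against Notch1 in each of the 10 mice (CPM, log2 axes), and right, Heyl (CPM, log2 axis) against the satellite cell and myoblast score (mean centred log2 CPM), with dots numbered by mouse, grey for Pax7Cre and orange for miR-501KO. On the left the mice follow a rising line with Pax7Cre mice 4 and 5 at its top (r = 0.96), and on the right Pax7Cre mice 2 and 4 form the ends (r = 0.89 with them, 0.65 without them).

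The genes most like 4 of the Notch genes over the 10 mice were sought among 13440 genes outside all lists with a mean of at least 1 CPM. Nearest to Notch3 were Ubap2 (r = 0.97, rho = 0.95), Cemip2 (r = 0.97, rho = 0.95) and Bptf (r = 0.97, rho = 0.98). Dll4 was most like Mus81 (r = 0.95, rho = 0.85), Ddx23 (r = 0.91, rho = 0.83) and Mul1 (r = 0.89, rho = 0.77). For Hes1 the nearest included Kazn (r = 0.90, rho = 0.94) and Naxe (r = 0.88, rho = 0.90), and for Rbpj they were Mtbp (r = 0.95, rho = 0.93), Mad1l1 (r = 0.92, rho = 0.92) and Cdk2 (r = 0.91, rho = 0.96). They were the best of many, each over 10 mice, so a high r is how they were found.

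Because the deleted gene makes a microRNA, the annotated 3′ untranslated regions were searched for the match to bases 2 to 8 of miR-501-3p, the letters GGTGCAT. The mature sequence, from RefSeq for GRCm38.p6 at chrX:7241270-7241291 on the minus strand, is shown with these seed bases in capitals, followed by the single match among the 10 Notch genes, in Hey1, read from the GENCODE transcript for GRCm38 with the matching letters in capitals.
mmu-miR-501-3p: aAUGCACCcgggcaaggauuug
Hey1 3′ untranslated region: ttttccttttGGTGCATgaaaatgtgg
The stretch shown is the minus strand of chr3:8663546-8663572, and the match begins at base 934 of the 1137 bases of this region of Hey1, whose log2 fold change was -0.10 with an interval that includes 0. The letters were not found in the annotated 3′ untranslated regions of the other 9 genes. They occurred in 1052 of 13989 tested genes with such a region (7.52%) and in 6 of 61 other pathway genes (9.84%), namely Mib1, Dtx3l, Psen2, Aph1c, Hes5 and Hey2. A match is a description and not a binding site.

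Promoters were searched for TGGGAA, the core of the motif that RBPJ binds, and for its reverse complement TTCCCA, in windows of 300 bases (250 before the start of transcription and 50 after) from RefSeq for GRCm38.p6. There were 9 windows for 7 of the genes (Notch1, Notch2, Notch3, Dll1, Dll4, Jag1 and Rbpj), and Hes1, Hey1 and Heyl are named only. The core was in 2 of the 9 windows, both of Rbpj and overlapping each other, and in 8397 of 32851 windows of all genes (25.6%, 95% Wilson interval 25.1% to 26.0%). The longer letters GTGGGAA, which contain the core, were in 0 of the 9 and in 6.38% of all. The matches are printed with the core in capitals, on the plus strand, because Rbpj is the pathway's own DNA-binding factor.
Rbpj chr5:53590187-53590212: tgaaaaaggcTGGGAAcccgcggcga
Rbpj chr5:53590271-53590296: cgctcgcattTTCCCAggacccctcc
The first begins 149 bases before the first of the 2 starts used here for Rbpj, which lie inside the annotated gene, and the other 65 bases before it. These letters describe the windows, and no binding was measured.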

How the data were processed

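The deposited values are read counts per gene, made by the authors for 10 mice and not normalised. The submitters' notes name STAR, featureCounts, R 3.5.1 and GRCm38.p5. The strand setting and the treatment of multimapping reads are not given in the sources used here. Identifiers were matched to GENCODE symbols for GRCm38 (25587 of 25700). Depth, 18609222 to 24753258 counts per mouse, limits the precision of each count, and mice of a genotype differed by more than counting noise (chi-square per degree of freedom at least 9.51). The labels name no batch.

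Library sizes were scaled by TMM in edgeR 4.0.16 (R 4.3.3). The tool kept 14410 genes (filterByExpr, minimum count 10, minimum total count 15) and compared genotypes by the quasi-likelihood test, with Benjamini-Hochberg adjustment over all genes tested. Single genes also had an exact two-sided permutation test on CPM over 252 assignments, whose smallest p is 0.00794. Correlations over mice used log2 CPM and 100000 permutations (scipy 1.17.1), with adjustment over each family of pairs. The code was tested on simulated counts. Alternatives were DESeq2 1.42.0 (size factors, Wald test), no filter, edgeR's likelihood ratio and newer quasi-likelihood tests, a block by mouse number, each mouse left out, genotype centring, transcript length and a longer motif.

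All 10 Notch genes are named. From each pathway list the text names the genes with an unadjusted p under 0.05, the highest and the lowest log2 fold change and the most abundant per length, and for likeness the 3 genes with the highest r. A marker list and a gene of the likeness search are not reported here. Genes and lists were chosen with earlier results of these data known. Intervals of shares cover counting error only.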

Additional observations from a re-analysis of the deposited data

Results flagged for a closer look

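Across 39 quantities, each looked at in both groups of 5 mice (78 groups), 3 groups held a mouse far from the other 4. Chance marks about 1 in 20 groups, or 3.9 of 78, so the number is not above it. Rbpj was 54.6 CPM in miR-501KO mouse 1, where the other deleted mice were between 44.4 and 47.3 CPM. Dtx1, a gene with few counts, was 1.37 CPM in Pax7Cre mouse 2 against 0.314 to 0.490 CPM in the other controls. Ctbp1 was 95.7 CPM in Pax7Cre mouse 3 against 114.0 to 118.2 CPM in the other controls. These mice were different in each case, and no cause was tested.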

How the results depend on the processing

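The count of genes with an adjusted p under 0.05 was 0 in every fit except edgeR's likelihood ratio test, which gave 19. The count at an unadjusted p under 0.05, 151 in edgeR's quasi-likelihood test, was 312 without the filter on low counts (153 higher, 159 lower), 254 by the likelihood ratio test (123 higher, 131 lower), and 98 to 470 when single mice were left out. It was 453 without Pax7Cre mouse 2 (267 higher, 186 lower), 470 without Pax7Cre mouse 4 (228 higher, 242 lower), 98 without miR-501KO mouse 1 (39 higher, 59 lower), and 531 without Pax7Cre mice 2 and 4 together (279 higher, 252 lower), a choice made after seeing the data. The cause was not tested.

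The number of the 10 Notch genes with an unadjusted p under 0.05 was 1 (Jag1), and 0 without the filter, by DESeq2's Wald test, by the likelihood ratio test, by the newer quasi-likelihood form and without Pax7Cre mice 2 and 4 together. It was 0 to 1 when single mice were left out. With DESeq2 size factors it was 1. No Notch gene had an adjusted p below 0.983 in any of these fits. Among other pathway genes the number was 0, and 0 to 1 when single mice were left out. It was 1 without Pax7Cre mice 2 and 4 together. This gene was Bhlhe40, with a log2 fold change of 0.27 and an adjusted p of 0.983 in edgeR's test. Of the relations to marker scores, 1 had an adjusted permutation p of Pearson's r under 0.05, and 0 did with genotype-centred values. By Spearman's rho 0 did, and 1 did with genotype-centred values, Rbpj with the mature fiber score. The rank relations of Notch1 with Notch3 and with Notch2 had an adjusted permutation p of 0.0585 after centring. The share of promoters with a match was 25.6% for TGGGAA and 6.38% for GTGGGAA, a longer motif by construction.

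With the mouse number as a block, 189 genes had an unadjusted p under 0.05 (87 higher, 102 lower) and 0 of the 10 Notch genes did. The sign of Notch3 changed under the block, to 0.00. The labels do not say that equal numbers mark pairs. The correlations of same-numbered mice were 0.337, -0.154, 0.156, -0.305 and 0.204, not all above 0.1, and mice 1, 3 and 5 correlated best with their own number, a hint from the data and not from the design. The block changed no other call than that of Jag1.

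Leaving out single mice moved the list medians through 0 for the 10 Notch genes (-0.04 to 0.07), further receptors and ligands (0.00 to 0.16), ubiquitin ligases (-0.03 to 0.05), proteases (-0.01 to 0.05), nuclear cofactors (-0.03 to 0.06) and other Hes and Hey genes (-0.05 to 0.06), so these medians carry no direction. For the sugar transferases and inhibitors they stayed below 0 but came as close to it as -0.0037 and -0.0048. The median over all genes tested was -0.0042, so no direction is read from these lists either. The median of the other Hes and Hey genes was -0.21 without the filter on low counts.

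Among tested pathway genes depth limits Dlk2, Dtx1 and Hey2 most, and among the 10 Notch genes Hey1. The data are from whole muscle at 1 time point with 5 mice per genotype, and differences smaller than the 95% intervals were not detectable.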
